A study of Mus musculus with 8 samples.

Results

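The genes described here code for factors that start and extend protein chains on cytosolic ribosomes, and for proteins that bind or modify them. These genes are together called translation factors here. Their messages were measured in the gastrocnemius (GAS), a calf muscle, of male wild-type C57/Bl6j mice. Members were taken by gene symbol: every array row naming a gene whose symbol starts with Eif1 to Eif6, Eef1 or Eef2, other than *Eif4ebp1* and *Eif2s3y*. Where a symbol had several rows, the row with the highest mean signal stood for it. This gave 62 genes on 61 probe sets, since *Eif3j1* and *Eif3j2* share a row, out of 22206 probe sets in all. The study compared muscle given an adeno-associated virus that carries, under a U6 promoter, a short hairpin RNA against the *Mytho* transcript (AAV sh-RNA MYTHO, called MYTHO-KD here) with muscle of the opposite leg given a virus with a scramble hairpin (AAV sh-RNA scrmb). Muscles were taken 3 weeks after injection. The mice were about 10 weeks old at injection per the series text, and 14 weeks old per the sample labels. Per the study's methods the MYTHO hairpin went into the right leg, so leg and hairpin cannot be told apart, and each hairpin was tested as a single vector. The U6 promoter is active in all cell types the virus enters, and cells that were not transduced may remain in the muscle. Each group held 4 arrays of the Clariom S Mouse type, and the animals, read from numbers in the column names, are called A to D.

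Translation starts when initiation factors load the small ribosomal subunit with the initiator tRNA and bring it to the capped end of a message. The factor eIF2 carries the initiator tRNA, eIF3 holds the small subunit, and the eIF4 factors bind the cap and unwind the leader. Elongation factors then deliver aminoacyl-tRNAs and move the ribosome along. In skeletal muscle these steps respond to feeding, loading and the mTORC1 kinase, and they are known to be set largely by phosphorylation of the factors, which arrays do not measure. Array signals here are log2 values, and a difference of 1 is a 2-fold change. They come from bulk muscle, where fewer cells of a type and less RNA per cell cannot be told apart.

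The promoter sequences of 6 members, picked after their values were seen, are shown so that relatives with different array values can be read side by side. *Eif5a* and *Eif5a2* code for the forms of eIF5A and *Eef1a2* and *Eef1a1* for those of eEF1A, while *Eif2s2* and *Eif5* act together at the initiator tRNA step. *Eif2b2*, *Eif3j1*/*Eif3j2*, *Eif2ak4*, *Eif3f*, *Eif4g3* and *Eif4e1b*, whose differences between the groups were larger in size than that of *Eef1a2*, are not printed. Each printed sequence is the 250 bases before an annotated transcription start (RefSeq, GRCm38.p6), written 5′ to 3′ on the strand of the gene. Capitals mark matches on either strand to 5 short motifs that were searched: CACGTG (the E-box of MYC, USF and TFE factors), CCGGAAG (an ETS family core), CCAAT (bound by NF-Y), TATAAA (the TATA box) and TGATGNAA (a core of the composite element bound by ATF4). *Eif5a* has 6 annotated starts, and the window with the most matches is shown. This window lies inside the annotated span of the gene, before an internal start.

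Eif5a, chr11:69920631-69920880 (- strand): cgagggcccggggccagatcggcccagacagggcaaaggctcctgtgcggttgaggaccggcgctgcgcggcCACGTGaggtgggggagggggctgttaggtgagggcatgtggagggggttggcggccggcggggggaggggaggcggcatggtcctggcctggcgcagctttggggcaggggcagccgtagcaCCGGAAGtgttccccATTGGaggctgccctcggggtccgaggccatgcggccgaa
Eif5a2, chr3:28781027-28781276 (+ strand): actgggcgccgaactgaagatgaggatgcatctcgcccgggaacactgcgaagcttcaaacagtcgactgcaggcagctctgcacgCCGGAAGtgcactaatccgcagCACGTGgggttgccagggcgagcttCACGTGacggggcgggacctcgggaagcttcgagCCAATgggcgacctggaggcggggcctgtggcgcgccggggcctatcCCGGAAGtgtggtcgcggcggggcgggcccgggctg
Eef1a2, chr2:181157016-181157265 (- strand): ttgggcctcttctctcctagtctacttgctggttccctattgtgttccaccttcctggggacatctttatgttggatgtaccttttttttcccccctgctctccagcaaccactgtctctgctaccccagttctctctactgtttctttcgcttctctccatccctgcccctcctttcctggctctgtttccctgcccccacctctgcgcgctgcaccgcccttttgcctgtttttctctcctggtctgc
Eef1a1, chr9:78481725-78481974 (- strand): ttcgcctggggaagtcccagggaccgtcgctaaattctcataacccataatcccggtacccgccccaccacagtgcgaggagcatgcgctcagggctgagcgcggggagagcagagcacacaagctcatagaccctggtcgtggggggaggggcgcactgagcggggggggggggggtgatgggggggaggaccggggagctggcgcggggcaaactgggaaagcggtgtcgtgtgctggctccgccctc
Eif2s2, chr2:154892907-154893156 (- strand): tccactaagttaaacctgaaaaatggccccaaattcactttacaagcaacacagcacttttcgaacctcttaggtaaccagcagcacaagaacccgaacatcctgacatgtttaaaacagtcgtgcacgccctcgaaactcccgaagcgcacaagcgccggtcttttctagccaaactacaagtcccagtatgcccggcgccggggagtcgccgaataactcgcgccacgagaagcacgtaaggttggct
Eif5, chr12:111537851-111538100 (+ strand): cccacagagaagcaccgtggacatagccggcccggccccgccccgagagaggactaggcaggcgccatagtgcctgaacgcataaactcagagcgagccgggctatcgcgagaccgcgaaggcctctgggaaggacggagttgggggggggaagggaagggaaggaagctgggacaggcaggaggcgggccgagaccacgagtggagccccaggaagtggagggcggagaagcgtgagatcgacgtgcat

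Of the 62 genes, 49 had at least 1 such window, with 64 windows in all. CACGTG occurred in 13 of the 64 member windows (20.3%), against 6.02% of all 32851 windows. Among 2380 windows of other genes whose array signal was at or above the median of the members, it occurred in 8.07%. The 11 genes with this motif included *Eif5a* (in 3 of its 6 windows), *Eif5a2*, *Eif3f*, *Eif4e*, *Eif4g1* and *Eef2*. CCGGAAG occurred in 18.8% of member windows, 6.91% of all windows and 12.3% of those other windows. CCAAT occurred in 23.4%, 33.8% and 34.6%, TATAAA in 6.25%, 12.4% and 6.89%, and TGATGNAA in 3.12%, 3.45% and 1.85%, in the same order. The printed windows of *Eef1a2*, *Eef1a1*, *Eif2s2* and *Eif5* held none of the 5 motifs. The *Eef1a2* window stood out in base content instead. It was 76.8% C or T on the strand of the gene, a share reached by 0.119% of all windows, while the *Eef1a1* window was at 40.4%. The motifs were chosen after promoters had been looked at, so the shares of windows above are not a test. Windows of a gene with several starts are not independent, and *Eif5a* gave 3 of the 13 with CACGTG. The matches describe letters and are not evidence of binding. *Eif5a* and *Eif5a2* both held CACGTG and CCGGAAG, with log2 fold changes of 0.95 and -0.33, and of the 8 members at an unadjusted p under 0.05, CACGTG occurred in windows of *Eif5a* and *Eif3f*.

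The hairpin target was measured first. D230025D16Rik, the array name of *Mytho*, had a log2 signal of 11.35, 11.31, 10.78 and 11.05 in scrmb muscles A to D and of 8.16, 8.20, 8.80 and 8.08 in MYTHO-KD muscles. The log2 fold change was -2.81 (SE 0.21, limma adjusted p = 0.00044). Across the whole table limma called 6 probe sets at an adjusted p under 0.05 (0.027%), and median signals ran from 6.39 to 6.47 over the arrays. All 8 fast-muscle markers looked for, among them *Ckm* and *Acta1*, were bright, with list means of 19.54 to 19.65 per array, where the scale ends at 19.93. The 8 slow-muscle markers, such as *Myh7* and *Tnni1*, differed between muscles. Their mean was 13.70, 11.91, 11.94 and 11.61 in scrmb muscles A to D and 14.88, 14.43, 14.81 and 11.68 in MYTHO-KD muscles, and 7 of the 8 had a limma unadjusted p under 0.05. With animal as a block all 8 were past it. With a variance trend and robust estimation their limma unadjusted p ran from 0.079 (*Tnni1*) to 0.275 (*Myl2*). The 5 endothelial markers had list means of 10.17 to 10.75 in scrmb and 10.89 to 11.08 in MYTHO-KD muscle, with 2 past a limma unadjusted p under 0.05 (*Pecam1* and *Tek*). Their part in the results on translation factors was not tested.

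After Benjamini-Hochberg adjustment over the whole table, limma called no translation factor at 0.05. The lowest adjusted p was 0.0946, for *Eif5a*. At an unadjusted p under 0.05, 5 probe sets were higher in MYTHO-KD muscle (8.20% of 61, background 4.81%) and 3 were lower (4.92%, background 7.58%), so 13.1% were past it in either direction against 12.4% of the array. As a set, the translation factors were thus past this threshold about as often as any probe sets. None was both 2-fold different and past that p (background 1.51%). The median log2 fold change was 0.05, against -0.005 for all probe sets, with a range from -0.60 to 0.95. Its sign was not stable, since it lay between -0.01 and 0.13 without single arrays (-0.0017 without scrmb A, 0.03 without scrmb C or MYTHO-KD B, 0.09 without scrmb D, 0.13 without MYTHO-KD C and -0.01 without MYTHO-KD D). In all, 36 were above 0 (59.0%, against 49.0% of all probe sets) and 24 below, and animal A had the most above 0, 44 of 61. The groups did not overlap for 3 higher members (*Eif5a*, *Eif2ak4* and *Eef1a2*; 4.92%, background 2.59%) and 3 lower (*Eif2s2*, *Eif5* and *Eif2b1*; 4.92%, background 3.87%). The difference between legs was above 0 in 4 of 4 animals for 7 probe sets (*Eef1a2*, *Eef1b2*, *Eef2*, *Eif2ak4*, *Eif3k*, *Eif3l* and *Eif5a*; 11.5%, background 8.94%). It was below 0 in 4 of 4 for another 7 (*Eef1e1*, *Eif2b1*, *Eif2s2*, *Eif3j1*/*Eif3j2*, *Eif4e1b*, *Eif5* and *Eif5b*; 11.5%, background 10.8%). With animal as a block, 4 members were higher (background 4.94%) and 3 lower (background 7.66%) at an unadjusted p under 0.05.

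**Figure D1:**
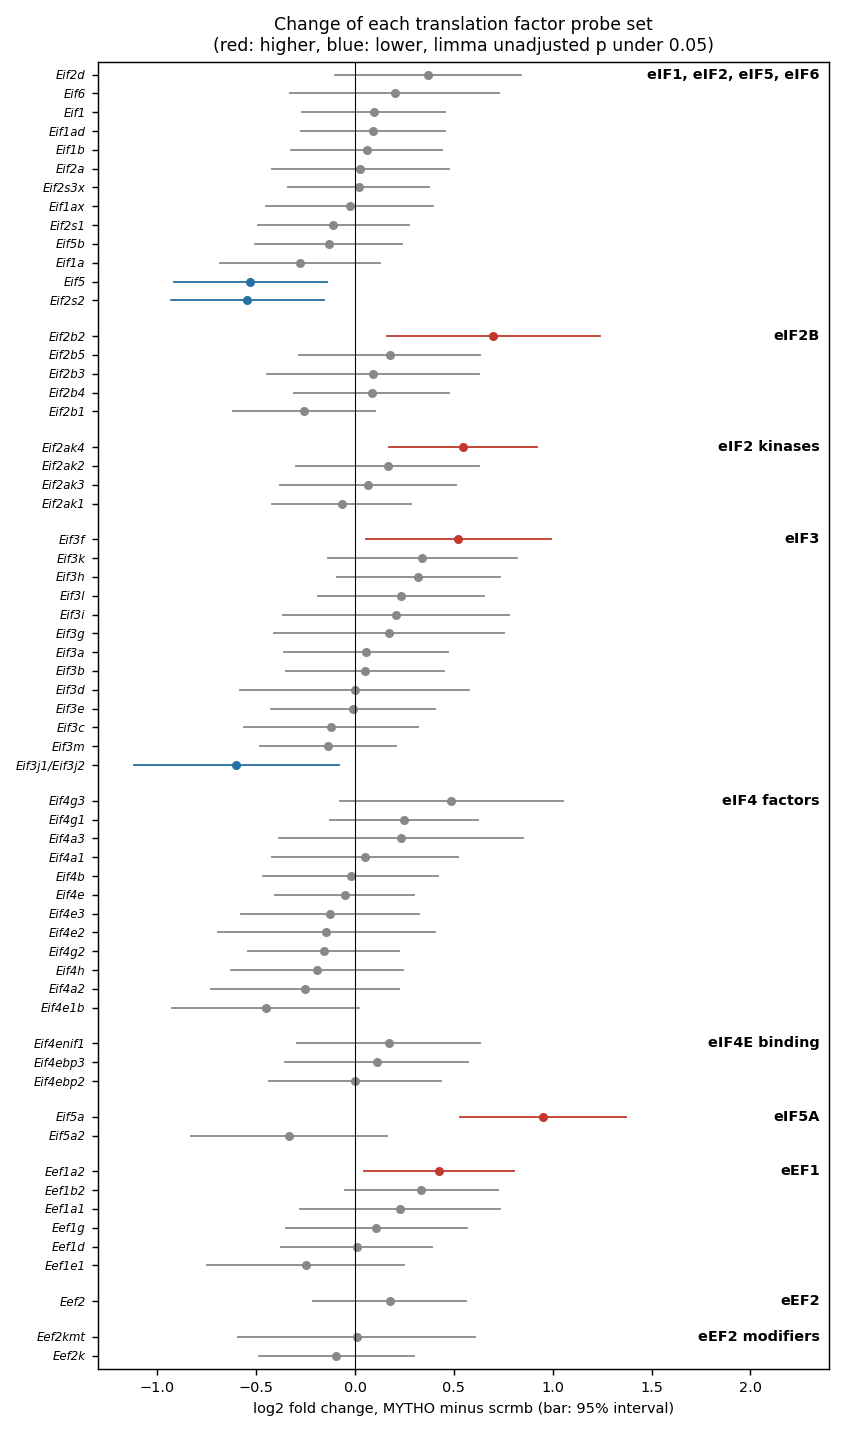
Log2 fold change (x axis, MYTHO-KD minus scrmb, 4 arrays each) of the 61 translation factor probe sets, grouped by role, where points are limma estimates and bars their 95% intervals. The 5 red and 3 blue probe sets had an unadjusted p under 0.05, with *Eif5a* furthest to the right at 0.95, and most intervals include 0.

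The member with the clearest difference was *Eif5a* (chromosome 11, 69916712 to 69921958, GRCm38.p6). It codes for eIF5A, which helps ribosomes through difficult peptide bonds and carries the modified lysine hypusine. Its log2 signal was 15.12, 15.32, 14.88 and 15.54 in scrmb muscles A to D, and 16.33, 16.27, 16.09 and 15.97 in MYTHO-KD muscles. Every MYTHO-KD muscle lay above every scrmb muscle. Mean signals were 15.21 ± 0.28 in scrmb and 16.16 ± 0.17 in MYTHO-KD muscle (SD, n = 4 each). This log2 difference of 0.95 (SE 0.19, 95% interval 0.53 to 1.37) is 1.93-fold, with a limma adjusted p = 0.0946. Within animals A to D the difference was 1.21, 0.95, 1.21 and 0.43, smallest in animal D, which also had the lowest slow-marker mean among the MYTHO-KD muscles. The adjusted p depended on the fit. It was 0.0179 with a variance trend and robust estimation (background 0.721% of probe sets called) and 0.0443 without the scrmb array of animal D, but 0.158 with animal as a block.

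*Eif5a2*, the relative of *Eif5a* with low expression in most adult tissues, was at 6.30, 6.92, 6.11 and 6.39 in scrmb muscles and at 6.36, 6.21, 6.19 and 5.63 in MYTHO-KD muscles. The groups overlapped, and the log2 fold change was -0.33 (95% interval -0.83 to 0.16, limma adjusted p = 0.598). These signals lie near or below the array medians of 6.39 to 6.47, so expression above background is not shown for *Eif5a2*. The enzymes that make hypusine, *Dhps* and *Dohh*, differed by 0.19 and 0.08 on the log2 scale (limma adjusted p 0.772 and 0.918).

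Factors of the initiator tRNA step held 2 of the 3 members that were lower at an unadjusted p under 0.05, *Eif2s2* and *Eif5*. *Eif2s2* codes for the beta subunit of eIF2. Its signal was 16.33, 16.31, 16.64 and 16.29 in scrmb muscles A to D and 15.96, 15.97, 15.56 and 15.90 in MYTHO-KD muscles. All MYTHO-KD muscles lay below all scrmb muscles, and animal C held both the highest scrmb and the lowest MYTHO-KD value. Its log2 fold change was -0.55 (SE 0.18, limma adjusted p = 0.247). The other subunits had values nearer 0. *Eif2s1*, the alpha subunit that stress kinases phosphorylate, had a log2 fold change of -0.11 (95% interval -0.49 to 0.27), and *Eif2s3x*, the gamma subunit, of 0.02. On each array, *Eif2s2* minus the mean of the other pair ran from 3.49 to 4.00 in scrmb and from 2.94 to 3.43 in MYTHO-KD muscle, a contrast chosen after the values were seen and not tested.

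*Eif5* codes for the GTPase-activating protein of eIF2. It was at 14.69, 14.76, 14.51 and 14.29 in scrmb muscles and at 14.23, 13.92, 13.93 and 14.05 in MYTHO-KD muscles. The groups were separated by 0.06 or more on the log2 scale. *Eif5* had a log2 fold change of -0.53 (SE 0.18, limma adjusted p = 0.260), and its row also names the small nucleolar RNA *Snora28*. Of the 13 probe sets for eIF1, eIF1A, eIF2, eIF5, eIF6 and related factors, these 2 were lower at that p (15.4%, background 7.58%) and none was higher (background 4.81%). *Eif1*, which guards start codon choice, had the highest signal of all members on any array, 18.44, still below the ceiling of 19.93.

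The guanine nucleotide exchange factor eIF2B recharges eIF2. *Eif2b2*, its beta subunit, was at 7.84, 7.21, 7.69 and 8.41 in scrmb muscles and at 8.80, 8.28, 8.49 and 8.38 in MYTHO-KD muscles. The scrmb muscle of animal D lay within the MYTHO-KD range, and the other scrmb muscles lay below it. This gave a log2 fold change of 0.70 (SE 0.25, limma adjusted p = 0.278), and without scrmb B it was 0.51 and no longer past an unadjusted p under 0.05. It was 1 of 5 probe sets, a share to read beside the background of 4.81%, and the other 4 subunits were not past an unadjusted p under 0.05. *Eif2b1*, the alpha subunit, had a log2 fold change of -0.26 and groups that did not overlap, and *Eif2b5*, the catalytic epsilon subunit, was at 0.17 (95% interval -0.28 to 0.63) with signals of 5.68 to 6.44, near or below the array medians, so that expression above background is not shown for it.

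Among the 4 kinases of eIF2 alpha, *Eif2ak4* was higher at an unadjusted p under 0.05 (background 4.81%). It codes for GCN2, which senses uncharged tRNA. Its signal was 7.14, 7.31, 7.02 and 7.03 in scrmb muscles and 7.57, 7.55, 7.64 and 7.92 in MYTHO-KD muscles, with no overlap. Its log2 fold change was 0.55 (SE 0.17, limma adjusted p = 0.234), and animal D had the largest difference of the 4 animals, 0.89. *Eif2ak3* (PERK, the kinase of endoplasmic reticulum stress) was at 0.07 (95% interval -0.38 to 0.51), *Eif2ak2* (PKR, activated by double-stranded RNA) at 0.17 and *Eif2ak1* (HRI, controlled by heme) at -0.07.

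**Figure D2:**
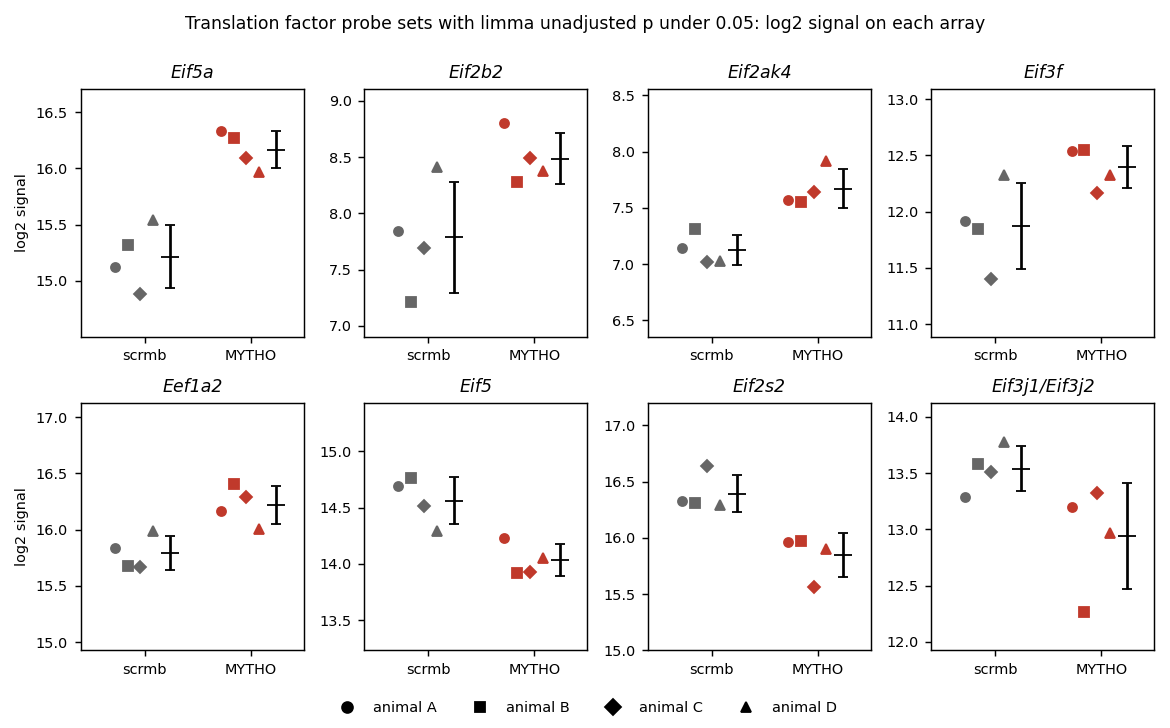
Log2 signal (y axis, each panel spanning 2.2 units) of the 8 translation factor probe sets past an unadjusted limma p under 0.05, for each array by group, with symbols for animals A to D and bars for the mean and SD of 4 arrays. *Eif5a*, *Eif2ak4*, *Eef1a2*, *Eif5* and *Eif2s2* show no overlap between the groups, and *Eif2b2*, *Eif3f* and *Eif3j1*/*Eif3j2* overlap.

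The eIF3 complex bridges the small ribosomal subunit and the cap-binding factors. Of its 13 probe sets, 1 was higher (7.69%, background 4.81%), 1 was lower (7.69%, background 7.58%) and 11 did not pass an unadjusted p under 0.05. *Eif3f*, which has been linked to muscle mass as a partner of mTORC1 and S6K1, was at 11.92, 11.85, 11.40 and 12.33 in scrmb muscles and at 12.54, 12.55, 12.17 and 12.33 in MYTHO-KD muscles. The difference was 0.62, 0.70 and 0.77 in animals A to C and 0.00 in animal D, so the groups overlapped through the scrmb muscle of animal D. *Eif3f* had a log2 fold change of 0.52 (SE 0.21, limma adjusted p = 0.350), and it was no longer past an unadjusted p under 0.05 without scrmb B, scrmb C (0.36), MYTHO-KD A or MYTHO-KD B. *Eif3j2* is also named by another row, which was not used because the row shared with *Eif3j1* had the higher mean signal. The row of *Eif3j1* and *Eif3j2*, which code for a loosely bound subunit and cannot be separated by this row, was at 13.29, 13.58, 13.51 and 13.78 in scrmb muscles and at 13.20, 12.27, 13.32 and 12.97 in MYTHO-KD muscles. It was lower in 4 of 4 animals, but by only 0.09 in animal A against 1.31 in animal B, and the log2 fold change was -0.60 (SE 0.24, limma adjusted p = 0.333). Without MYTHO-KD B it was -0.38, and without scrmb B, scrmb D or MYTHO-KD B it was no longer past an unadjusted p under 0.05. *Eif3a*, the largest subunit, was at 0.055 (95% interval -0.36 to 0.47).

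None of the 12 eIF4 probe sets passed an unadjusted p under 0.05 (background 12.4% in either direction). *Eif4e*, the cap-binding protein, lay between 12.78 and 13.02 on all 8 arrays, with a log2 fold change of -0.05 (95% interval -0.40 to 0.30). *Eif4g1*, the scaffold of the cap complex, was at 0.25 (95% interval -0.12 to 0.62). The helicases *Eif4a1* and *Eif4a2* were at 0.05 and -0.25 (95% intervals -0.42 to 0.52 and -0.73 to 0.22), and the *Eif4a2* row also names 2 small nucleolar RNAs. Without MYTHO-KD C *Eif4a2* was at -0.09. *Eif4g3*, a second scaffold, and *Eif4e1b*, a germline relative of *Eif4e*, had the most distant values, 0.49 and -0.45, with 95% intervals of -0.08 to 1.05 and -0.92 to 0.02. *Eif4e1b*, at 5.61 to 6.62, is not shown to be above background either. *Eif4g3* ran from 0.27 to 0.65 without single arrays and was past an unadjusted p under 0.05 without scrmb D (0.65), and *Eif4e1b* was past it without scrmb A (-0.55) or MYTHO-KD B (-0.60). *Eif4ebp2*, an inhibitor of eIF4E that mTORC1 phosphorylates, had the same mean of 10.33 in both groups (95% interval of the difference -0.44 to 0.44).

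For elongation, the eIF5A pair aside, 9 probe sets were measured, 2 of them for enzymes that modify eEF2. Of the 9, 1 was past an unadjusted p under 0.05 (11.1%, background 12.4%). This was *Eef1a2*, the eEF1A isoform of adult muscle and neurons, which delivers aminoacyl-tRNA. Its signal was 15.84, 15.68, 15.67 and 15.99 in scrmb muscles and 16.17, 16.41, 16.29 and 16.01 in MYTHO-KD muscles. The groups did not overlap, but scrmb and MYTHO-KD muscles of animal D differed by only 0.02. The log2 fold change was 0.425 (SE 0.17, limma adjusted p = 0.347), and it was no longer past an unadjusted p under 0.05 with animal as a block, after quantile normalization (0.34) or without scrmb B, scrmb C, MYTHO-KD B or MYTHO-KD C (0.36 to 0.40). *Eef1a1*, the isoform of most other tissues, was at 16.08, 16.61, 16.70 and 15.92 in scrmb muscles and at 17.01, 16.39, 16.37 and 16.45 in MYTHO-KD muscles. The groups overlapped, and the log2 fold change was 0.23 (95% interval -0.28 to 0.73), and 0.076 without MYTHO-KD A. Within animals A to D it differed by 0.93, -0.22, -0.33 and 0.53. The 5 adipocyte markers had list means of 8.62, 9.41, 9.70 and 7.05 in scrmb muscles A to D and of 11.05, 7.48, 8.75 and 7.70 in MYTHO-KD muscles, so both were higher in the MYTHO-KD leg in A and D and lower in B and C. None of the 5 passed an unadjusted p under 0.05 between the groups, and their part in the *Eef1a1* values was not tested. *Eef2*, the translocase, was at 0.175 (95% interval -0.21 to 0.56), higher in 4 of 4 animals by 0.05 to 0.43, and at 0.077 without scrmb A. *Eef2k*, the kinase that inhibits it, was at -0.095 (95% interval -0.49 to 0.30).

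Many members had their extreme values in the same muscles. Among scrmb muscles, animal D had the highest value for 29 of the 61 probe sets (47.5%, against 24.7% of all probe sets), and animals A and C had the lowest for 23 and 25. Among MYTHO-KD muscles, animal C had the lowest value for 34 of 61 (55.7%, against 29.4%), including 9 of the 13 eIF3 probe sets. The median deviation of the members from their group mean was 0.16 in scrmb D and -0.185 in MYTHO-KD C, where all probe sets together were at -0.01 and -0.04. This was not particular to these genes. In 4 other lists of translation genes (termination, mTORC1 control, tRNA synthetases and mitochondrial factors) the list mean was also highest in scrmb D among scrmb muscles and lowest in MYTHO-KD C among MYTHO-KD muscles (synthetases 10.86 and 10.44, mTORC1 10.05 and 9.93). MYTHO-KD C was also the muscle with the highest *Mytho* signal of its group. The direction also differed between animals. In animal A, 44 of 61 were higher in the MYTHO-KD leg (72.1%, against 48.3% of all probe sets), in B 32, in C 24 and in D 25. The median difference was 0.25, 0.07, -0.09 and -0.03 in animals A to D. The typical error for a member was a limma SE of 0.20 (0.16 to 0.28).

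**Figure D3:**
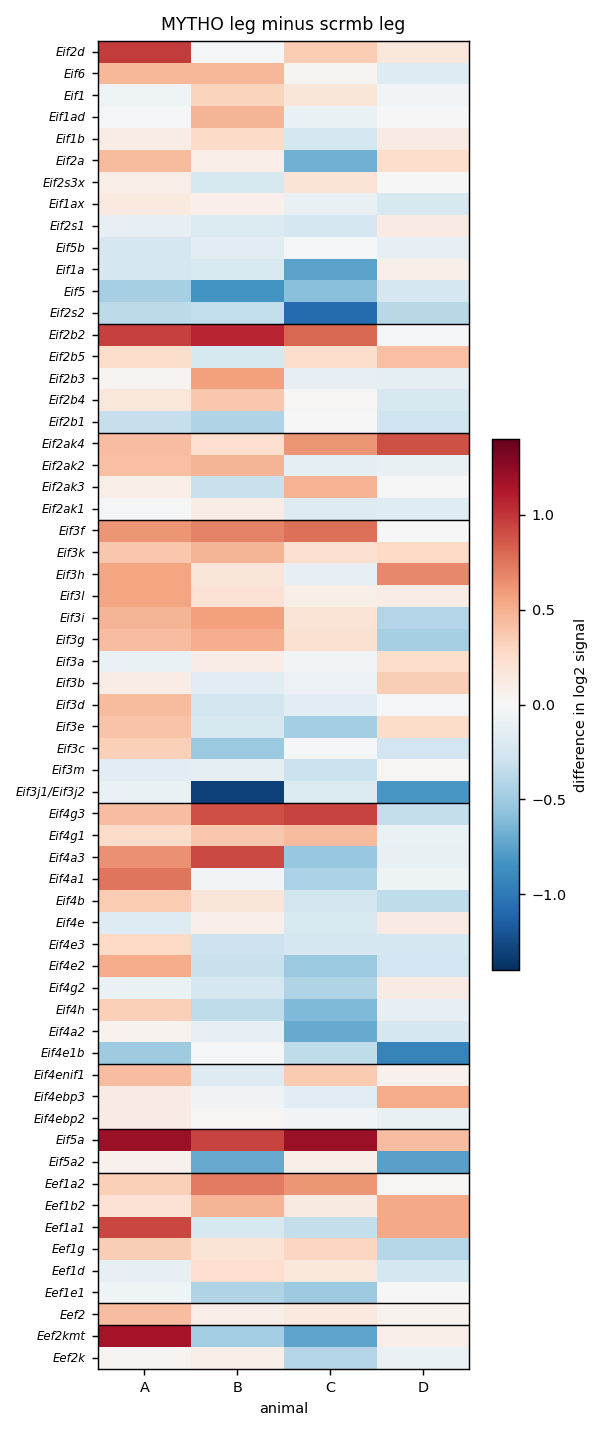
Difference in log2 signal between the MYTHO-KD and scrmb legs (colour, red for higher in MYTHO-KD) for the 61 probe sets (rows, by role, lines between roles) in animals A to D (columns). Animal A shows mostly higher values (44 of 61) and animals C and D more lower ones (37 and 33), while *Eif5a* is higher and *Eif2s2* and *Eif5* are lower in all 4.

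Other genes of translation were read from lists chosen by role, and each count at an unadjusted p under 0.05 stands against a background of 4.81% higher and 7.58% lower. Of 15 probe sets for termination, recycling and poly(A) binding, 1 was higher (6.67%) and none was lower. It was *Pabpc4*, a poly(A)-binding protein, at 0.685 (limma adjusted p = 0.237). Of 24 for mTORC1 and translational control, 3 were higher (12.5%) and 1 lower (4.17%), and with animal as a block 2 were higher and 1 lower, without *Rps6kb2*. *Tbc1d7*, a subunit of the TSC complex that restrains mTORC1, was at 7.17, 7.22, 6.87 and 7.26 in scrmb muscles and at 8.42, 8.70, 8.42 and 7.83 in MYTHO-KD muscles, with no overlap. Its log2 fold change was 1.21 (SE 0.21, limma adjusted p = 0.0609), and the limma adjusted p was 0.0231 with a variance trend and robust estimation but 0.158 with animal as a block. *Deptor*, an inhibitory partner of mTOR, and *Rps6kb2*, an S6 kinase, differed by 0.57 and 0.39 (limma adjusted p 0.366 and 0.356). *Impact*, known to hold GCN2 in check, was the lower one. It was at 10.03, 9.89, 9.72 and 9.72 in scrmb muscles and at 9.25, 9.40, 9.35 and 9.41 in MYTHO-KD muscles. The groups did not overlap, and the log2 fold change was -0.49 (SE 0.16, limma adjusted p = 0.261). *Mtor* was at 0.02 (95% interval -0.72 to 0.76).

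Of the 22 cytosolic aminoacyl-tRNA synthetases and their scaffold proteins, which charge tRNAs, 4 were lower (18.2%) and 2 higher (9.09%) at an unadjusted p under 0.05. With animal as a block only *Iars* was still past it among the lower ones, leaving 1 lower and 2 higher. The lower ones were *Iars* at -0.58, *Sars* at -0.46, *Gars* at -0.41 and *Hars* at -0.36, each lower in 4 of 4 animals, and *Farsa* at 0.505 and *Aimp2* at 0.695 were higher. Their limma adjusted p ran from 0.304 to 0.394. Of the 11 mitochondrial translation factors, 3 were higher (27.3%; 2 with animal as a block, without *Mtrf1l*) and none was lower, with *Tufm*, the mitochondrial relative of eEF1A, at 0.675, *Tsfm* at 0.485 and *Mtrf1l* at 0.46, each in 3 of 4 animals. The list medians were -0.05 for termination, 0.09 for mTORC1, -0.02 for synthetases and 0.16 for mitochondrial factors, beside 0.05 for the initiation and elongation factors. With the fit used throughout, none of these genes passed an adjusted p under 0.05, and with a variance trend and robust estimation *Tbc1d7* did.

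**Figure D4:**
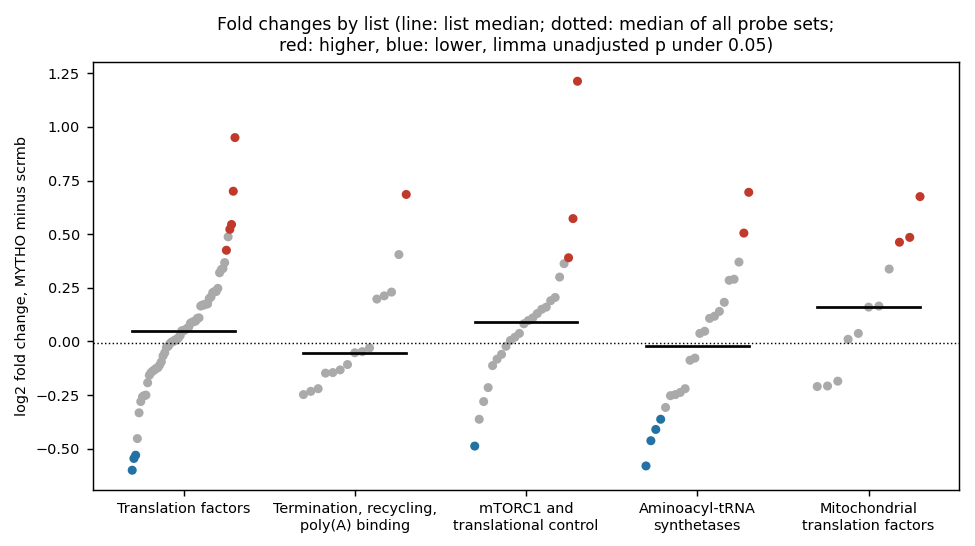
Log2 fold change (y axis, MYTHO-KD minus scrmb) of the probe sets of 5 lists, sorted within each list, with the list median as a bar and the median of all probe sets as a dotted line. All 5 medians lie between -0.05 and 0.16, and *Tbc1d7* at 1.21 is the only point above 1.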

How the data were processed

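The authors hybridised biotin-labelled RNA from GAS muscle to Clariom S Mouse arrays and deposited log2 signals, 1 per probe set and array. Per the labels these came from the Transcriptome Analysis Console version 4.0.1 with default settings, and per the file headers from SST-RMA at gene level with annotation release 36 on mm10. SST-RMA corrects background, scales signals to a common space, quantile normalizes and summarises probes, which compresses differences near background and, at 19.93, near the ceiling. The authors' deposited group averages (log2), fold change score and p-values hold their own comparison and were not used.

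Groups came from the hairpin named in each column. Column names also carry a number, once per group, that is read here as an animal number. As the study injected both legs of a mouse, same-numbered arrays were taken to come from the same animal. Deviations from the group means correlated at 0.00, -0.00, 0.13 and 0.09 in animals A to D, so the pairing rests on the column names. The labels' replicate numbers could not be tied to columns. Groups were compared with limma version 3.58.1 (R version 4.3.3) by lmFit and eBayes, without a block (the study's methods name an eBayes ANOVA and state no block), two-sided, with Benjamini-Hochberg adjustment over all 22206 probe sets. The script was tested on simulated data. Precision is limited by 4 arrays per group.

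The text names members with an unadjusted p under 0.05, the 5 highest and 5 lowest fold changes and 16 members fixed by role, and genes of the other translation lists with an unadjusted p under 0.05. *Dhps*, *Dohh*, *Mtor*, *Eif2s3x*, *Eif1*, *Eif2b1*, *Eif2ak1* and *Eif2ak2* were added after their values were seen. Members and lists were chosen with earlier results of these data known. The 5 promoter motifs were chosen after promoters had been looked at. Alternatives were other normalizations, filters on dim, saturated or multi-gene rows, other variance models, array weights, blocks on animal, and leaving out arrays or animals.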

Additional observations from a re-analysis of the deposited data

Results flagged for a closer look

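In 74 groups of 4 arrays, taken from the named members, marker and gene list means and medians of arrays, 6 had a lone array whose gap to its nearest neighbour made up most of the whole range, above the 95% limit of Dixon for 4 values. Chance gives about 1 in 20. *Eif2s2* was apart in animal C in both groups, at 16.64 in scrmb against 16.29 to 16.33 (gap share 0.886) and at 15.56 in MYTHO-KD against 15.90 to 15.97 (0.8293, just over the limit). *Eef1a1* was apart in MYTHO-KD muscle A, at 17.01 against 16.37 to 16.45 (0.875). In the same muscle the mean of the 5 adipocyte markers was 11.05, against 7.48 to 8.75 in the other MYTHO-KD muscles, and its part was not tested. The targeted gene was apart in MYTHO-KD muscle C, at 8.80 against 8.08 to 8.20 (0.833). The mean of the 8 slow-muscle markers was apart in scrmb muscle A, at 13.70 against 11.61 to 11.94 (0.842), and in MYTHO-KD muscle D, at 11.68 against 14.43 to 14.88 (0.859).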

How the results depend on the processing

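The targeted gene stayed lower, with a limma adjusted p under 0.05, in all 23 alternatives (-3.09 to -2.69). The count of 5 higher and 3 lower members at an unadjusted p under 0.05 was 2 and 1 with a fold minimum of 1.5 and 0 and 0 with one of 2. The lower count was 1 among rows naming 1 gene only, where *Eif5* and *Eif3j1* drop out. Without both arrays of animal A, B or C the higher count was 2, 3 and 3. Without single arrays it ran from 3 to 7 (3 without scrmb B, scrmb C or MYTHO-KD B), and the lower count from 2 to 4. The count after adjustment, 0, was 1 (*Eif5a*) at an adjusted p of 0.1 and with trend and robust, and ran from 0 to 1 without single arrays (1 without scrmb D). With animal as a replicate block, 4 members were higher and 3 lower at an unadjusted p under 0.05 and 0 passed adjustment. *Eef1a2* lost that call, as it did after quantile normalization. In the other lists *Sars*, *Gars*, *Hars*, *Rps6kb2* and *Mtrf1l* lost it. Members without overlap, 3 higher and 3 lower, ran from 3 to 8 and from 3 to 5 without single arrays, with 8 higher without scrmb D, 6 higher without MYTHO-KD C and 5 lower without scrmb A. They were 7 and 5 without animal C and 9 and 5 without D, and the lower count was 5 without A. Fewer arrays make overlap less likely.

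*Eif5a* kept a limma unadjusted p under 0.05 in all 23 alternatives (adjusted p 0.0179 to 0.485). *Eif2ak4* and *Eif2s2* did so in 22 of 23, *Eif5* in 21 of 22, *Eif2b2* in 20 of 23, *Eif3j1* in 17 of 22, *Eif3f* in 16 of 23 and *Eef1a2* in 14 of 23. *Eif4e1b*, not past it with all arrays, was in 4 of 22 and *Eif4g3* in 2 of 23. The median of the members ran from -0.01 to 0.13 without single arrays. Signs were followed only for the members named by p, rank or role, and reversed only for those past no threshold. Without both arrays of an animal these were *Eef1a1* (-0.0067) and *Eif4a1* (-0.18) without A, *Eef2k* (0.01) and *Eif2ak3* (-0.073) without C, and *Eif3a* (-0.01) without D. Without single arrays *Eif2ak3* ran from -0.043 to 0.17, *Eif4a1* from -0.091 to 0.18 and *Eif3a* from -0.035 to 0.16. The cause was not tested.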
